A study of Mus musculus with 2 samples.

Results

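The matrix genes and matrix-cutting proteases measured here are the 140 rows of the deposited gene table whose symbol begins as that of a matrix metalloproteinase (Mmp), an ADAM or ADAMTS protease, a tissue inhibitor of metalloproteinases (Timp), a collagen chain (Col) or a laminin chain (Lama, Lamb, Lamc), out of 23309 rows in all. The cells were mouse bone marrow progenitors of the genotype Cebpaf/f;CreER, enriched by lineage depletion, transduced with retroviruses for HA-tagged Hoxa9 and Flag-tagged Meis1, and grown with IL3. They received 5 nM 4OHT (4-hydroxytamoxifen), which activates CreER and leads to excision of Cebpa, or ethanol as vehicle, for 72 h. Both conditions therefore carried the floxed alleles, the Cre and both oncogenes, and a 4OHT-treated culture without the floxed alleles was not analysed here, so Cebpa loss cannot be told apart from what 4OHT or Cre do by themselves. The sources used here give neither the promoter of CreER nor the number of animals.

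Collagens and laminins form the fibres and sheets that surround cells, and laminins work as trimers of an alpha, a beta and a gamma chain. MMPs cut this matrix, ADAMs cut other proteins off the cell surface, ADAMTS enzymes process matrix precursors and proteoglycans, and TIMPs block the active sites of many of these proteases. In marrow most matrix is made by stromal cells and vessels, while myeloid cells make several of the proteases. C/EBPα, the product of Cebpa, is a transcription factor needed for granulocyte and monocyte development.

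Each condition had 1 deposited value per gene, in FPKM (fragment numbers divided by the length of the transcript and by the depth of the library), and each value joined 2 replicates, so no spread between replicates can be given. No test was run here. A gene is said to have risen or fallen where the authors' deposited table tested it and gave a q under 0.05. Cebpa had 42.8 FPKM in 4OHT cells and 109 FPKM in vehicle cells, or 39.2% of the level in vehicle cells. Its q of 0.00165 was the smallest in the authors' deposited table, but 363 rows shared that value, 4 of them members. A q of 0.00165 therefore does not rank these rows against each other. The median log2((4OHT FPKM + 1)/(vehicle FPKM + 1)) over the 10989 rows of 1 FPKM or more in the higher condition was 0.00031.

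Few members reached 1 FPKM in the higher condition, the level from which a gene is counted as measured here. Of the 140 rows, 46 (32.9%) were listed at 0 in both conditions, 71 lay above 0 but under 1 FPKM, and 23 reached 1 FPKM in the higher condition. Over all rows, 29.3% were listed at 0 and 47.1% reached 1 FPKM. A listed 0 is not proof of a silent gene, since Hmgcs1, an enzyme of cholesterol synthesis that every cell uses, was listed at 0 too. One of the 23 rows, Col4a3bp, entered by its letters alone. It encodes a ceramide transfer protein, not a collagen, had 14.0 FPKM in 4OHT cells and 13.8 FPKM in vehicle cells, and is left out of the family counts below.

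The authors' deposited table tested 32 of the 140 members. Of these, 3 rose (Col18a1, Col4a1 and Mmp16) and 5 fell (Adam17, Mmp13, Mmp19, Col6a3 and Col6a6). Among all tested rows 2.80% rose and 3.11% fell, 5.91% together. By level in the higher condition, 2 of 9 members tested under 1 FPKM were called, 5 of 17 from 1 to under 10 FPKM and 1 of 6 from 10 to under 100 FPKM, beside 7.15%, 7.72% and 4.70% of all rows tested at those levels. At an unadjusted p under 0.05 in the authors' deposited table, 5 members were higher and 9 lower, beside 6.20% and 6.14% of all tested rows. No member changed 2-fold on the log2(FPKM + 1) scale, which 0.764% of rows of 1 FPKM or more did upwards and 1.30% downwards. The added 1 shrinks the changes of low genes, and those shares cover rows of every level from 1 FPKM. On the linear scale, 5 of the called members changed 2-fold or more. Whether a row was tested depended on its level, so the called members are not a sample of all 140. The 22 matrix and protease genes of 1 FPKM or more had a median log2 ratio of -0.11, with 9 above 0 and 13 below it.

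**Figure D1:**
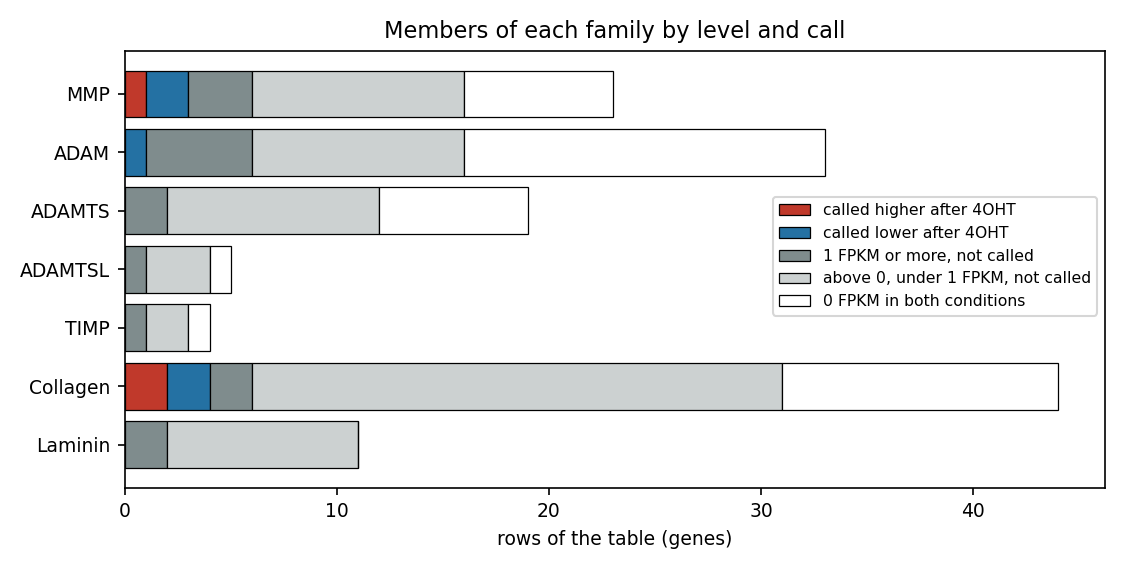
Number of rows (x axis) in each family (y axis), split by level and by the call in the authors' deposited table. All 7 families lie mostly under 1 FPKM or at 0, and the 8 calls fall among the MMPs, the ADAMs and the collagens.

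Among the MMPs, a collagenase and a basement membrane protease fell and a membrane-anchored member rose. Mmp13, collagenase-3, had 1.53 FPKM in 4OHT cells and 3.94 FPKM in vehicle cells, 2.57-fold lower, with q = 0.00165 in the authors' deposited table. Mmp19, which degrades basement membrane proteins, had 3.81 FPKM in 4OHT cells and 7.21 FPKM in vehicle cells, 1.89-fold lower, with q = 0.00569 in that deposited table. Mmp16, anchored in the cell membrane and able to activate the Mmp2 precursor, had 2.27 FPKM in 4OHT cells and 1.28 FPKM in vehicle cells, 1.78-fold higher, with a q of 0.0201 in the authors' deposited table. On mm9, Mmp19 lies on chromosome 10 at 128227966 to 128241426 and Mmp16 on chromosome 4 at 17780629 to 18045881. Tmem198b, whose row shares the deposited locus of Mmp19, had 4.48 FPKM in 4OHT cells and 5.01 FPKM in vehicle cells and was not called. Mmp19 was the highest MMP in both conditions and made up 26.5% of the summed MMP level in 4OHT cells and 36.5% in vehicle cells. Mmp13 was the second highest MMP in vehicle cells and lay below Mmp12, Mmp16 and Mmp8 in 4OHT cells.

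The other measured MMPs were not called. Mmp8, the neutrophil collagenase, had 2.20 FPKM in 4OHT cells and 3.003 FPKM in vehicle cells, with q = 0.487 in the authors' deposited table. Mmp12, macrophage elastase, had 2.27 FPKM in 4OHT cells and 2.22 FPKM in vehicle cells, and Mmp24, another membrane type, 1.25 and 1.10 FPKM in the same order. The gelatinases, of which neutrophils store Mmp9, were low. Mmp9 had 0.0423 FPKM in 4OHT cells and 0.05005 FPKM in vehicle cells, and Mmp2 had 0.247 and 0.179 FPKM in the same order. Mmp14, the membrane collagenase that activates the Mmp2 precursor, had 0.0224 FPKM in 4OHT cells and 0.0130 FPKM in vehicle cells. Of 23 MMP rows, 7 were listed at 0 in both conditions, and the family summed to 14.4 FPKM in 4OHT cells and 19.7 FPKM in vehicle cells.

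Mmp13, Mmp12 and Mmp8 belong to a tight cluster of 10 MMP genes on mouse chromosome 9, between 7272514 and 7699416 on mm9. In this cluster 6 genes (Mmp1a, Mmp1b, Mmp3, Mmp7, Mmp10 and Mmp20) were listed at 0 in both conditions, Mmp27 stayed under 1 FPKM, and Mmp13 was the only gene called. The summed level of the cluster was 6.04 FPKM in 4OHT cells and 9.26 FPKM in vehicle cells. The level of Mmp13 was 0.697 times that of Mmp8 in 4OHT cells and 1.31 times in vehicle cells. The 250 bases before the start of the 3 measured genes of the cluster are shown because these neighbours differ in the call, and capitals mark matches of TGANTCA, the AP-1 motif, or TTGCNNAA, a C/EBP motif core, on either strand (RefSeq, GRCm38.p6, plus strand, 5′ to 3′).
Mmp13, chr9:7272264-7272513: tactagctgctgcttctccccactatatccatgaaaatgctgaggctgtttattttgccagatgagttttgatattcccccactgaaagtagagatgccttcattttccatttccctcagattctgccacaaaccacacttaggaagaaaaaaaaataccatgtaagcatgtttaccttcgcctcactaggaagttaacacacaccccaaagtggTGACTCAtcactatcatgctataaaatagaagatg
Mmp12, chr9:7347124-7347373, the later of its annotated starts: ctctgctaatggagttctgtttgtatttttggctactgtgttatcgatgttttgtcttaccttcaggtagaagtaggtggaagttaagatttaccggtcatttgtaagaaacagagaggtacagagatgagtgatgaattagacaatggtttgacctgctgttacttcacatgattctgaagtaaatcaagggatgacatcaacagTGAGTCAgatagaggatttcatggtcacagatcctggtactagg
Mmp8, chr9:7558179-7558428: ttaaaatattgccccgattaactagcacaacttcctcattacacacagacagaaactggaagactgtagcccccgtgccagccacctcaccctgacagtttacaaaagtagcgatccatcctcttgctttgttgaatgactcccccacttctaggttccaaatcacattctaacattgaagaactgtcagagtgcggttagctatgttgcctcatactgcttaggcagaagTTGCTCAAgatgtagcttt

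The AP-1 letters were a shared feature of this cluster. TGANTCA stood in a window of 8 of the 10 cluster genes, all but Mmp8 and Mmp27, between 35 and 95 bases before the start. By window, it stood in 8 of the 12 cluster windows and in 6.75% of all 32851 RefSeq promoter windows of that length. It stood in 5.56% of the 90 windows of the other members. TTGCNNAA stood in 9.56% of all windows and in 6 of the 12 cluster windows. These windows belong to 6 cluster genes, among them Mmp8 and, at the earlier of its annotated starts, Mmp12, but not Mmp13. G and C made up 37.2% to 53.2% of the bases in the cluster windows, beside a median of 52.4% over all windows. The part of base composition in these matches was not tested. In all, 93 members had a window in the RefSeq table. Of the 6 called members with a window, none held TTGCNNAA and 1, Mmp13, held TGANTCA. A match describes letters in these windows and not a bound site.

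Adam17, Adam10, Adam15, Adam8 and Adam9 were the highest of the matrix and protease genes, while 17 of 33 ADAM rows were listed at 0 and 10 lay above 0 but under 1 FPKM. The sheddase Adam17 was the only ADAM called. Adam17, which releases tumour necrosis factor and other proteins from the cell surface, had 53.3 FPKM in 4OHT cells and 82.6 FPKM in vehicle cells, 1.55-fold lower, with q = 0.00569 in the authors' deposited table. It lies on mm9 chromosome 12 at 21322253 to 21379452. Iah1, whose row shares that deposited locus, had 34.4 FPKM in 4OHT cells and 33.1 FPKM in vehicle cells and was not called. Adam10, the closest relative of Adam17 and the protease that cuts Notch receptors, had 64.3 FPKM in 4OHT cells and 57.1 FPKM in vehicle cells, with q = 0.993 in the authors' deposited table. Adam10 was thus the most abundant member in 4OHT cells and Adam17 in vehicle cells, and the level of Adam10 was 1.21 times that of Adam17 in 4OHT cells and 0.691 times in vehicle cells.

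The remaining measured ADAMs were all slightly lower in 4OHT cells and none was called. Adam15 had 40.9 FPKM in 4OHT cells and 46.0 FPKM in vehicle cells. Adam8, found on leukocytes, had 10.6 FPKM in 4OHT cells and 13.1 FPKM in vehicle cells, with q = 0.572 in the authors' deposited table. Adam9 had 10.9 and 11.5 FPKM in the same order, and Adam3, a sperm protein needed for fertilization, 1.74 and 2.05 FPKM. Of the 17 ADAM rows listed at 0, 11 lie on chromosome 8, where Adam9 and Adam3 were the only ADAM rows of 13 above 0. Such gene clusters hold related copies, and the sources used here do not say how reads matching several related genes were counted.

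**Figure D2:**
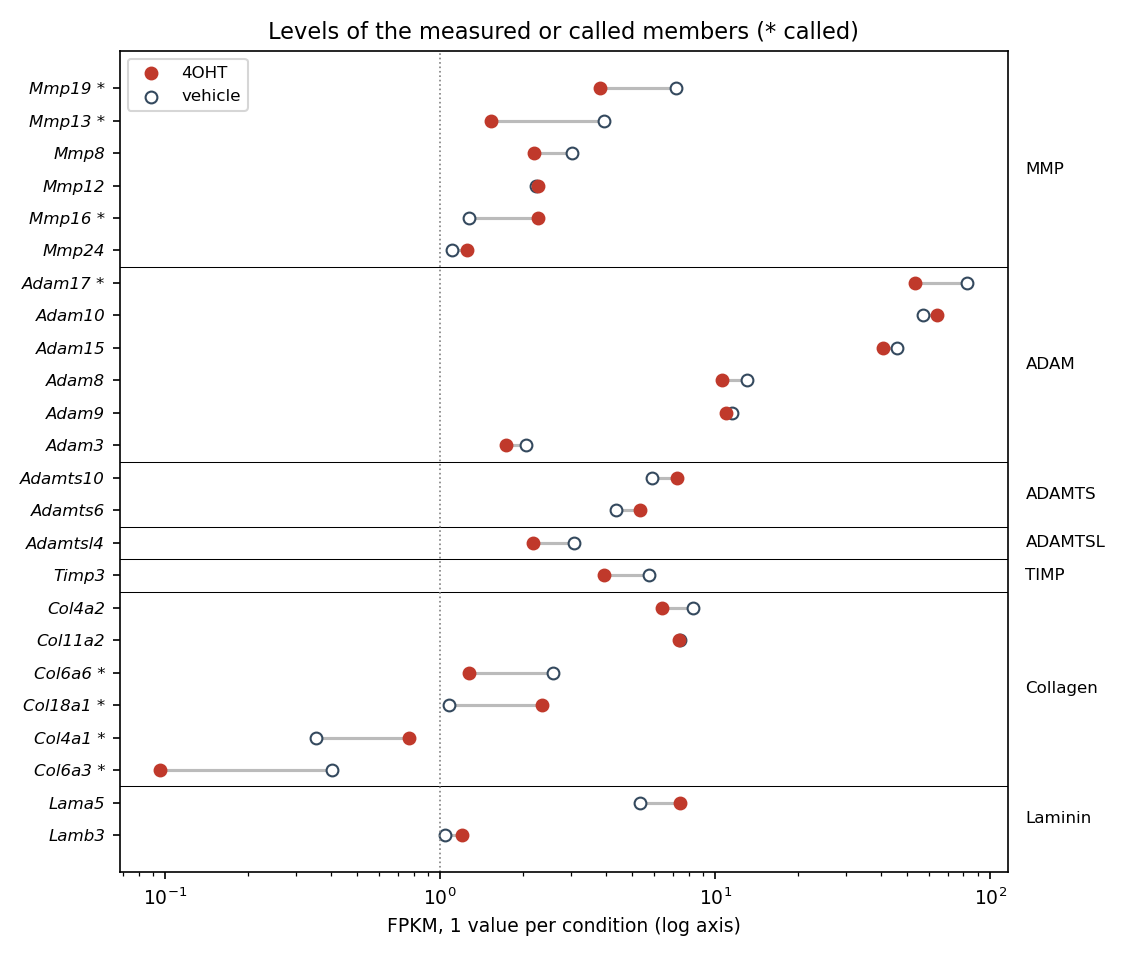
FPKM in 4OHT cells (filled) and vehicle cells (open) on a log axis for the 22 matrix and protease genes of 1 FPKM or more and the 2 called collagens below it, grouped by family, with 1 value per condition and no error bars. Adam17, Mmp13, Mmp19, Col6a6 and Col6a3 lie left in 4OHT cells and Mmp16, Col18a1 and Col4a1 right.

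The secreted ADAMTS proteases and their ADAMTS-like relatives, which lack the protease domain, held no called member, and at an unadjusted p under 0.05 in the authors' deposited table Adamts17 was higher and Adamtsl4 and Adamtsl5 were lower. Adamts10, an enzyme tied to fibrillin microfibrils, had 7.28 FPKM in 4OHT cells and 5.88 FPKM in vehicle cells, with q = 0.591 in the authors' deposited table. Adamts6 had 5.32 FPKM in 4OHT cells and 4.37 FPKM in vehicle cells, with q = 0.702 in the authors' deposited table. Both measured ADAMTS genes were a little higher in 4OHT cells, and the other 17 ADAMTS rows lay under 1 FPKM, 7 of them at 0. Adamtsl4 had 2.17 FPKM in 4OHT cells and 3.07 FPKM in vehicle cells, and Adamtsl5 had 0.281 and 0.702 FPKM in the same order. Their q was 0.239 for Adamtsl4 and 0.203 for Adamtsl5 in the authors' deposited table.

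Of the inhibitors, only Timp3 reached 1 FPKM. Timp3, which binds to the matrix and inhibits ADAM17 as well as MMPs, had 3.95 FPKM in 4OHT cells and 5.75 FPKM in vehicle cells, with q = 0.265 in the authors' deposited table. Timp2 had 0.441 FPKM in 4OHT cells and 0.681 FPKM in vehicle cells, with q = 0.464 in the authors' deposited table. Timp1 was listed at 0 in 4OHT cells and at 0.0221 FPKM in vehicle cells, and Timp4 at 0 in both. The summed MMP level was 3.27 times the summed TIMP level in 4OHT cells and 3.06 times in vehicle cells. The deposited locus of Timp3 spans 450 kb and is shared with the rows of Syn3 and 4930486F22Rik, and that of Timp1 with Syn1 and Araf.

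Collagen chains moved in both directions at low levels. Col18a1, a basement membrane collagen whose end fragment is endostatin, had 2.35 FPKM in 4OHT cells and 1.08 FPKM in vehicle cells, 2.18-fold higher, with q = 0.00165 in the authors' deposited table (mm9 chromosome 10, 76514924 to 76629275). Col6a6, a chain of the beaded-filament collagen VI, had 1.27 FPKM in 4OHT cells and 2.57 FPKM in vehicle cells, 2.02-fold lower, with q = 0.00165 in that deposited table (chromosome 9, 105591747 to 105730415). Col6a3, another chain of collagen VI, had 0.0958 FPKM in 4OHT cells and 0.405 FPKM in vehicle cells, 4.23-fold lower, again with q = 0.00165 in the authors' deposited table (chromosome 1, 92663435 to 92740548). Col6a3 was the largest linear change among the called members and also the lowest in level. Col6a1 and Col6a2, whose chains combine with that of Col6a3 or a relative in collagen VI, stood near 0. Col6a1 had 0.0173 FPKM in 4OHT cells and 0.0474 FPKM in vehicle cells, and Col6a2 had 0.0183 FPKM in 4OHT cells and was listed at 0 in vehicle cells.

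The basement membrane chains Col4a1 and Col4a2, which assemble into the same collagen IV molecule, were unequal. Col4a1 had 0.770 FPKM in 4OHT cells and 0.355 FPKM in vehicle cells, 2.17-fold higher, with q = 0.00806 in the authors' deposited table. Col4a2 had 6.41 FPKM in 4OHT cells and 8.28 FPKM in vehicle cells, with q = 0.278 in the authors' deposited table. Per length, the level of Col4a2 was 8.32 times that of Col4a1 in 4OHT cells and 23.3 times in vehicle cells. The genes are transcribed away from each other on mm9 chromosome 8, from 11198423 to 11312826 for Col4a1 and from 11312829 to 11449287 for Col4a2. The stretch at their starts is shown because it holds the annotated start of both genes, with capitals for the 22 bases from the annotated start of Col4a2 to that of Col4a1 (RefSeq, GRCm38.p6, plus strand, 5′ to 3′).
Col4a1/Col4a2, chr8:11312801-11312830: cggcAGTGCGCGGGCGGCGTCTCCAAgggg

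Of the 44 collagen chains 4 reached 1 FPKM, and the last of these, Col11a2, a fibrillar chain known from cartilage, had 7.36 FPKM in 4OHT cells and 7.48 FPKM in vehicle cells and was not called. Type I collagen, the main product of fibroblasts and osteoblasts, stood near 0. Col1a1 was listed at 0 in 4OHT cells and had 0.0173 FPKM in vehicle cells, and Col1a2 had 0.0570 and 0.0689 FPKM in the same order. Col3a1, its usual partner in soft tissue, was listed at 0 in both conditions, as were 13 collagen chains in all.

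Laminins had no called member, and the alpha chain Lama5 came closest. Lama5 had 7.45 FPKM in 4OHT cells and 5.33 FPKM in vehicle cells, with a q of 0.0594 in the authors' deposited table, the smallest q among the members not called. Lamc1, the gamma chain of most laminins, had 0.891 FPKM in 4OHT cells and 0.755 FPKM in vehicle cells. Lamb3 had 1.20 FPKM in 4OHT cells and 1.04 FPKM in vehicle cells, while Lama3, the alpha chain of the same epithelial laminin, had 0.00137 FPKM in 4OHT cells and was listed at 0 in vehicle cells. All 11 laminin rows were above 0 in at least 1 condition, and Lama5 made up 76.8% of their summed level in 4OHT cells and 73.7% in vehicle cells.

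**Figure D3:**
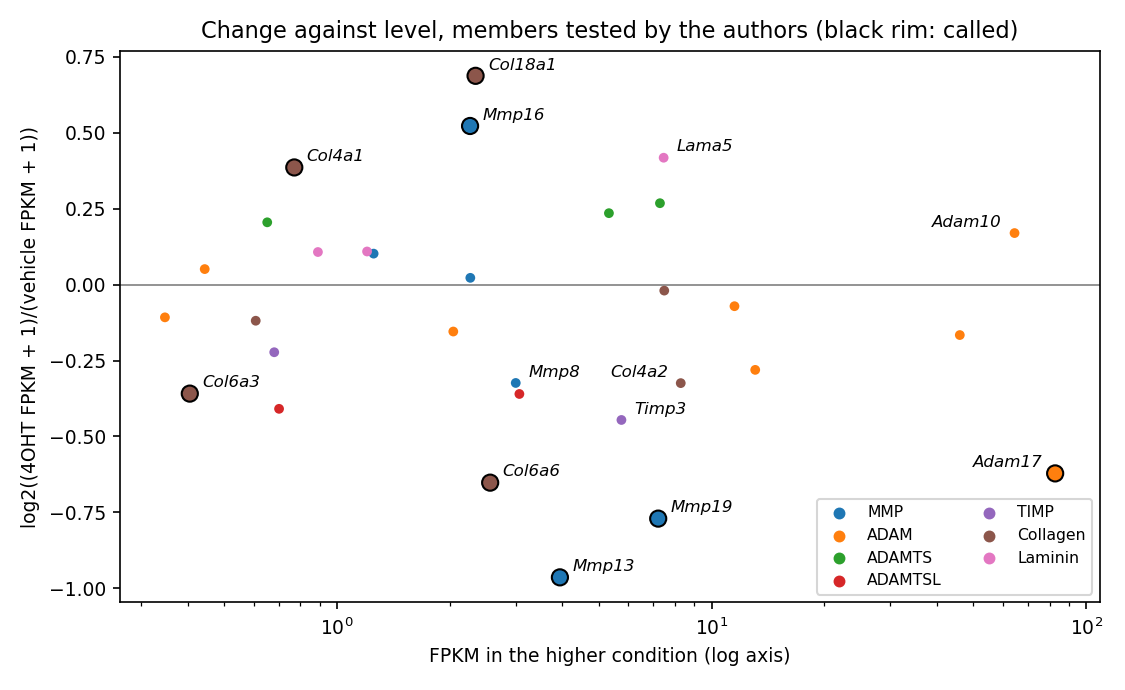
log2((4OHT FPKM + 1)/(vehicle FPKM + 1)) (y axis) against FPKM in the higher condition (x axis, log) for the 31 matrix and protease genes that the authors tested, coloured by family. Large points with a black rim are the 8 called genes, 3 above 0 and 5 below it, and low genes lie closer to 0 because of the added 1.

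Genes that work on or with these members were read from 5 lists of 125 genes. Of these, 67 were tested by the authors, none rose and 14 fell at a q under 0.05 in the authors' deposited table, where 2.80% of all tested rows rose and 3.11% fell. At an unadjusted p under 0.05 in that table, 2 were higher and 24 lower, beside 6.20% and 6.14% of all tested rows. The lists were chosen with earlier results of these data known, so these counts describe the lists and are not a test of them. Of 13 measured enzymes and chaperones of collagen processing, 4 fell and 12 had a log2 ratio below 0, with a median of -0.31. Plod1, a lysyl hydroxylase of collagen, had 14.9 FPKM in 4OHT cells and 32.3 FPKM in vehicle cells, with a q of 0.00165 in the authors' deposited table. Its relative Plod3 had 35.9 and 59.9 FPKM in the same order, with q = 0.00165 in that deposited table. P4ha2, an alpha subunit of prolyl 4-hydroxylase, fell to 2.68 FPKM in 4OHT cells, against 4.45 FPKM in vehicle cells. P4hb, the beta subunit of that enzyme and a general protein disulfide isomerase, fell to 669 FPKM, against 1007 FPKM in vehicle cells. The q of P4ha2 and P4hb was 0.0434 and 0.0130 in the authors' deposited table, in that order. Ppib, a prolyl isomerase, was the other high entry, with 332 FPKM in 4OHT cells and 375 FPKM in vehicle cells, and was not called. Serpinh1, the chaperone that cells need to fold fibrillar collagen, had 0.00636 FPKM in 4OHT cells and 0.0152 FPKM in vehicle cells.

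Protease activators and inhibitors also fell in part, with 5 of 13 tested entries lower and none higher. Serpine2, an inhibitor of thrombin and plasminogen activators, had 3.02 FPKM in 4OHT cells and 15.3 FPKM in vehicle cells, 5.06-fold lower, with q = 0.00165 in the authors' deposited table. Hpse, heparanase, fell to 3.20 FPKM in 4OHT cells, against 6.21 FPKM in vehicle cells, and Plau, urokinase, to 0.434 FPKM, against 1.00 FPKM in vehicle cells. The granule proteases Elane and Ctsg, which can activate MMP precursors, fell 1.95-fold and 1.48-fold. Their q was 0.00165 for Hpse and Elane, 0.0309 for Plau and 0.0382 for Ctsg in the authors' deposited table. A second column of calls in that table, labelled Diff Exp, was true for 629 rows (5.26% of those tested). It holds all 8 called members and 13 of the 14 list genes that fell, all but Ctsg. Every member or list gene true in that column also had a q under 0.05, so the column is no separate support for the calls. Furin, which cuts the prodomain off ADAMs and membrane-type MMPs, had 38.7 FPKM in 4OHT cells and 38.2 FPKM in vehicle cells. Reck, a membrane-anchored MMP inhibitor, had 0.705 FPKM in 4OHT cells and 0.658 FPKM in vehicle cells.

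Partners and substrates of the ADAMs held 3 that fell among 18 tested. Tnfrsf1b, a tumour necrosis factor receptor shed by ADAM17, had 18.9 FPKM in 4OHT cells and 33.7 FPKM in vehicle cells. App, the amyloid precursor, had 6.66 FPKM in 4OHT cells and 10.3 FPKM in vehicle cells, and Notch1 had 3.84 and 5.79 FPKM in the same order. Their q was 0.00165 for Tnfrsf1b, 0.0182 for App and 0.0148 for Notch1 in the authors' deposited table. Rhbdf2, the adaptor that carries ADAM17 to the cell surface, had 10.8 FPKM in 4OHT cells and 12.3 FPKM in vehicle cells and was not called. Tnfrsf1a, the other tumour necrosis factor receptor, had 30.7 FPKM in 4OHT cells and 42.4 FPKM in vehicle cells and was not called.

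Of 33 other matrix glycoproteins and proteoglycans 10 were tested and 2 fell. Thbs1, thrombospondin-1, fell 53.8-fold, and Spp1, osteopontin, had 10.4 FPKM in 4OHT cells and 17.6 FPKM in vehicle cells. Their q was 0.00165 for Thbs1 and 0.0121 for Spp1 in the authors' deposited table. Srgn, the granule proteoglycan serglycin, had 2412 FPKM in 4OHT cells and 2733 FPKM in vehicle cells, and Emilin2 had 114 and 99.96 FPKM in the same order, both uncalled. Among the matrix receptors none of 13 tested entries was called, and 0 had an unadjusted p under 0.05 in the authors' deposited table, with a median log2 ratio of -0.05 over the 11 measured. The integrin chain Itgb1, which pairs with most matrix-binding alpha chains, had 67.1 FPKM in 4OHT cells and 69.3 FPKM in vehicle cells, and Itga4 had 40.0 and 33.9 FPKM in the same order.

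**Figure D4:**
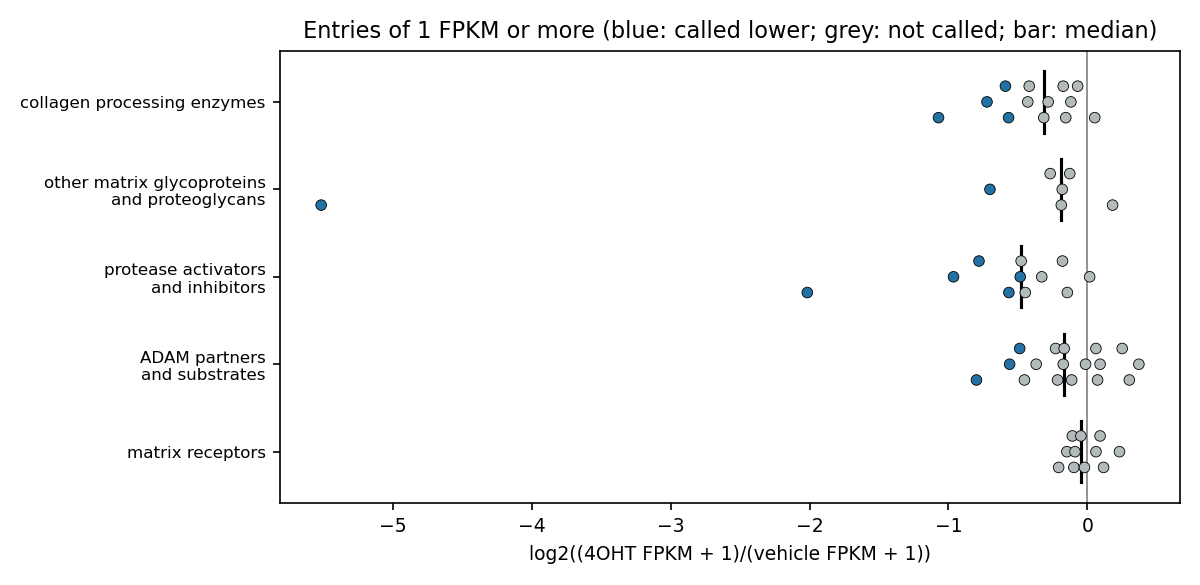
log2((4OHT FPKM + 1)/(vehicle FPKM + 1)) (x axis) of the entries of 1 FPKM or more in each of 5 lists (y axis), with each point a gene, blue where called lower in the authors' deposited table and grey where not called, and a bar at each list's median. No entry was called higher, and the leftmost point is Thbs1.

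Markers were read as a check of the labelled cell type. All 6 hematopoietic progenitor markers were above 1 FPKM in both conditions, with sums of 1400 FPKM in 4OHT cells and 1094 FPKM in vehicle cells. Kit and Cd34 rose, while Ptprc, Mpo, Myb and Spi1 were not called. Of the 6 markers 3, Ptprc, Myb and Spi1, had a log2 ratio below 0. The sums were mostly Mpo and Cd34. Mpo had 603 FPKM in 4OHT cells and 496 FPKM in vehicle cells, and Cd34 had 493 and 284 FPKM in the same order. Of 10 fibroblast and marrow stroma markers, Dcn, Lum and Postn were listed at 0 in both conditions and 2 reached 1 FPKM, with sums of 14.3 FPKM in 4OHT cells and 8.89 FPKM in vehicle cells. Most of that sum was Pdgfrb, which rose to 13.3 FPKM in 4OHT cells, against 6.62 FPKM in vehicle cells, while Pdgfra had 0.00440 FPKM in 4OHT cells and was listed at 0 in vehicle cells. Lepr, a marker of marrow stroma, fell to 0.283 FPKM in 4OHT cells, against 0.678 FPKM in vehicle cells. The q in the authors' deposited table was 0.00165 for Kit, Cd34 and Pdgfrb and 0.00569 for Lepr. Of 7 endothelial markers 2, Pecam1 and Flt1, reached 1 FPKM. Cdh5 had 0.00341 FPKM in 4OHT cells and 0.00793 FPKM in vehicle cells, Kdr was listed at 0 and at 0.00288 FPKM in the same order. In that order Vwf had 0.272 and 0.254 FPKM, Flt1 had 0.701 and 1.19 FPKM with a q of 0.0565 in the authors' deposited table, and the sums of 189.9 and 215 FPKM were nearly all Pecam1, which blood progenitors also make. Of 6 bone and cartilage markers, Alpl, Sox9 and Acan were listed at 0 in both conditions and Runx2 alone reached 1 FPKM, with sums of 16.9 FPKM in 4OHT cells and 13.8 FPKM in vehicle cells. The part of any of these cells in the changes of Col18a1, Col4a1, Col6a3 and Col6a6 was not tested. In such bulk RNA, fewer cells of a type and less RNA per cell cannot be told apart.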

How the data were processed

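RNA was sequenced in 2 conditions, 1 sample each, and each sample joined 2 replicates, which the series calls biological. Per the submitters' processing notes, the tools were Cuffdiff 2.0.2, Bowtie2 2.0.0.7 and CASAVA 1.8.2 with the build mm9, roles unstated. The authors deposited 1 table with FPKM per gene and condition, a test score, a p-value, a q-value and a linear fold ratio, per the file headers. The deposited q equals a Benjamini-Hochberg adjustment over the 11953 tested rows to within 5.28e-07. Strand handling is not stated, so reads from stretches where genes on opposite strands overlap may not be told apart.

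Members were matched by symbol, and no row with joined symbols matched. Python 3.11.15 and pandas 2.3.3 computed counts, sums, medians and log2 ratios with a pseudocount of 1 FPKM, which understates changes of low genes. The log2 ratio, the calls, the adjustment and the median rescaling were tested on simulated data. The family counts, sums and medians were not. The table holds no read counts. FPKM times length in kb was taken over genes with 1 annotated transcript of at least 1 kb (GENCODE M21). It was most often 0.014 to 0.016 in 4OHT cells and 0.016 to 0.018 in vehicle cells, which may be the worth of 1 fragment. Values near 0.02 FPKM may thus rest on very few fragments for a transcript near 1 kb, and on more for a longer one. Named were called members, the 3 highest measured members of each family, measured members with a log2 ratio of at least 0.5, the 3 smallest q not under 0.05, a fixed set of well-known members, and in each list the called entries and the 2 highest. Other genes were named after their values were seen. The members, lists and alternatives were chosen with earlier results of these data known. All 155 list entries matched a row, 6 by an older symbol. Loci are those deposited, with starts counted from 1. Items withheld from this text are not reported here.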

Additional observations from a re-analysis of the deposited data

How the results depend on the processing

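Of 60 alternative values for counts, medians and sums, 46 stayed near the main value. Near means within 1.5 times of the main count or sum, or within 0.1 of the main median. All 60 values for single named genes kept their sign, but their alternatives could hardly change it. Another pseudocount added to both conditions cannot reverse a sign, and the rescaling factor was 0.999749. The sums had only that rescaling as an alternative, so it is no check of them either. At an unadjusted p under 0.05 in the authors' deposited table, 5 members were higher and 9 lower, beside 6.20% and 6.14% of all tested rows. By a rule of size alone, 2-fold on the log2(FPKM + 1) scale, 0 members were higher and 0 lower, while 3 and 5 are called by q. The linear folds of Adam17, Mmp19 and Mmp16 are under 2 as well, and those of the other 5 called members are above it. With silent taken as under 0.1 FPKM in both conditions, 99 members were silent. The medians of families rest on few genes. Over every member above 0 FPKM they were -0.0011 for all members, 0.013 for MMPs, -0.031 for ADAMs, 0.0014 for ADAMTS genes, -0.0087 for collagens and 0.0059 for laminins, since most members added have values near 0. With a minimum of 0.5 FPKM the collagen median was -0.069 and the laminin median 0.11, and with Col4a3bp counted as a collagen, an alternative chosen after seeing the data, the collagen median was -0.020. Rescaling moved no median past 0.1, but its factors of 0.999749 and 1.00747 were too close to 1 to do so. Without read counts, how far depth limits the values under 1 FPKM is not known. Among these are the values of Col4a1 and Col6a3, which the authors tested and called. No paired analysis was possible because each condition has 1 column that joins its replicates, and for the same reason no replicate could be left out.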

Other observations

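Of the 94 members above 0 FPKM in at least 1 condition, 14 were listed at 0 in the other. In 4OHT cells 5 were at 0 that were above 0 in vehicle cells, and in vehicle cells 9 were at 0 that were above 0 in 4OHT cells. Over the whole series, 16480 rows were above 0 in at least 1 condition. Of those rows, 576 were at 0 in 4OHT cells only and 763 in vehicle cells only. Among the 14 members the highest value was 0.0303 FPKM, that of Mmp15, a membrane-type MMP, in 4OHT cells, so none gives a level that can be set against the other condition. Of the 71 members between 0 and 1 FPKM, 53 were under 0.1 FPKM and 62 were not tested by the authors, the highest of these being Mmp11 with 0.310 FPKM in 4OHT cells and 0.296 FPKM in vehicle cells.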
